A study of Mus musculus with 18 samples.

Results

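The genes described here are 36 antioxidant genes and targets of the transcription factor NRF2, chosen by name as the enzymes and regulators of these pathways. A member was measured where the platform annotation gave a probe set its symbol alone. This held for 31 of the 36 genes, with 68 probe sets, out of 18193 genes measured in the series, and a gene's value is the mean of its probe sets. Of the other members, Prdx1 and Ftl1 have only probe sets that carry further symbols, and Prdx5, Prdx6 and G6pdx have no probe set under their name in the annotation used here.

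The samples are laser-captured dopamine neurons of adult C57Bl/6 mice. They come from 2 midbrain regions, the substantia nigra, abbreviated SN, and the ventral tegmental area, abbreviated VTA, and amplified RNA of each was measured on an expression array. All mice carried the hTH-GFP transgene, by its usual reading a human tyrosine hydroxylase promoter driving green fluorescent protein, in every group, controls included, and lived in single housing for 9 weeks. MPTP at 4 mg/kg was given over 2 or 10 days, and control mice had 10 days of saline. Brains were taken 7 days after dosing ended. Each combination of region and treatment has 3 arrays, 18 in all, so a 2 day group also differs from its control in the number of injection days. The sample labels call the controls untreated, while the protocol gives them saline. No label says how neurons were recognised, how many mice an array holds, or whether an SN and a VTA array share a mouse, though replicates are called biological, so p-values measure the spread between these arrays. The question set by the series is whether VTA neurons respond to the toxin differently from SN neurons.

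MPTP is converted by monoamine oxidase B, largely in glia, to a cation that dopamine neurons import and that inhibits mitochondrial complex I, which raises superoxide. Cells meet such oxidants in layers: superoxide dismutases make hydrogen peroxide, which catalase breaks down unaided and which glutathione peroxidases and peroxiredoxins reduce at the expense of glutathione and thioredoxin. NRF2, encoded by Nfe2l2, is held at low protein level by KEAP1, and when KEAP1 is oxidised it enters the nucleus with a small MAF partner and binds antioxidant response elements near Hmox1, Nqo1, Gclc, Gclm, Txnrd1, Srxn1 and other genes. Its activity is set mainly at the protein level, so the mRNA of its targets is the usual reading.

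The core of the antioxidant response element is written TGACNNNGC, and it was searched on both strands in RefSeq promoter windows (GRCm38.p6) that run from 250 bases before to 50 bases after a gene's start. Of 32851 windows of all genes, 12.4% hold it, and of the 27025 genes with a window, some with several, 13.991% have it in at least 1. Windows were found for 30 of the 36 members, and not for Hmox1, Gclc, Gsr, Sod3, Prdx6 and Gsta4. Of the 30, 8, or 26.7%, hold a match when counted by gene. Among the 26 measured members with a window the match is in Gclm, Sod1, Txnrd1, Srxn1, Nfe2l2 and Gstm5. Measured values of the genes with this match are set further below beside those of members with a window and no match. The stretches before the start are shown for 5 of the genes with the match. The matched 9 bases are in capitals, 5′ to 3′ on the gene's strand.
Gclm, chr3:122245393-122245461, plus strand: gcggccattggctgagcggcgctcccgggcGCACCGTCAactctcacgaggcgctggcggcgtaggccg
Txnrd1, chr10:82859084-82859152, plus strand: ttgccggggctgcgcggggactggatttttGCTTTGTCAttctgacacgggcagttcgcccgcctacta
Sod1, chr16:90220676-90220744, plus strand: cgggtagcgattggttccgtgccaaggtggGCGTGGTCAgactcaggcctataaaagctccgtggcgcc
Gstm5, chr3:107895782-107895850, plus strand: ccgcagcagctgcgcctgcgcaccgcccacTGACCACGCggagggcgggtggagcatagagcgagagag
Nfe2l2, chr2:75704865-75704913, minus strand: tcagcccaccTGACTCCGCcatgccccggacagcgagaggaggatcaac
In Gclm, Txnrd1 and Sod1 the match is read on the opposite strand, and in Gstm5 and Nfe2l2 on the gene's own strand. The window of Txnrd1 is 1 of 3 listed for that gene. A match is a run of letters in this window and not a measured binding site, and no match says only that these letters are not in the window.

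No member passed the test in any of 12 comparisons. Limma, fitted over all 18193 genes with Benjamini-Hochberg adjustment, called 0 members at an adjusted p of 0.05 in each comparison, where few genes of any kind were called. The share of all genes called was 0% in SN at 2 days, 0.0055% in SN at 10 days and 0.011% in VTA at each time. It was 0.0879% at 2 days and 0.0385% at 10 days averaged over both regions, and 0% in the 4 comparisons between regions and the 2 differences of responses. The value printed throughout is the log2 signal minus that probe set's median over the 18 arrays, so it compares arrays for a gene and holds no absolute level, and no gene can be ranked against another by it. For the same reason the values cannot show whether a marker of dopamine neurons or of another cell is present. The standard error of a difference between 2 groups was between 0.118 and 0.498 over the members, with a median of 0.162. Members were a little steadier within groups than genes at large, with a median standard deviation (SD) of 0.189 against 0.237. Steadiest were Gclc (0.105), Sod1 (0.123) and Gstp1 (0.124), and most variable Gpx3 (0.693), Gpx7 (0.66) and Slc7a11 (0.547). These SDs are not strictly comparable, since the genes average different numbers of probe sets. Sod1 has 5, Gclc and Slc7a11 have 2 each, and Gstp1, Gpx3 and Gpx7 have 1 each. The arrays differ in spread: the median absolute deviation over all probe sets was widest for VTA 2 day array 1, at 0.269, and for SN saline array 1, at 0.235, against 0.123 to 0.204 elsewhere.

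**Figure D1:**
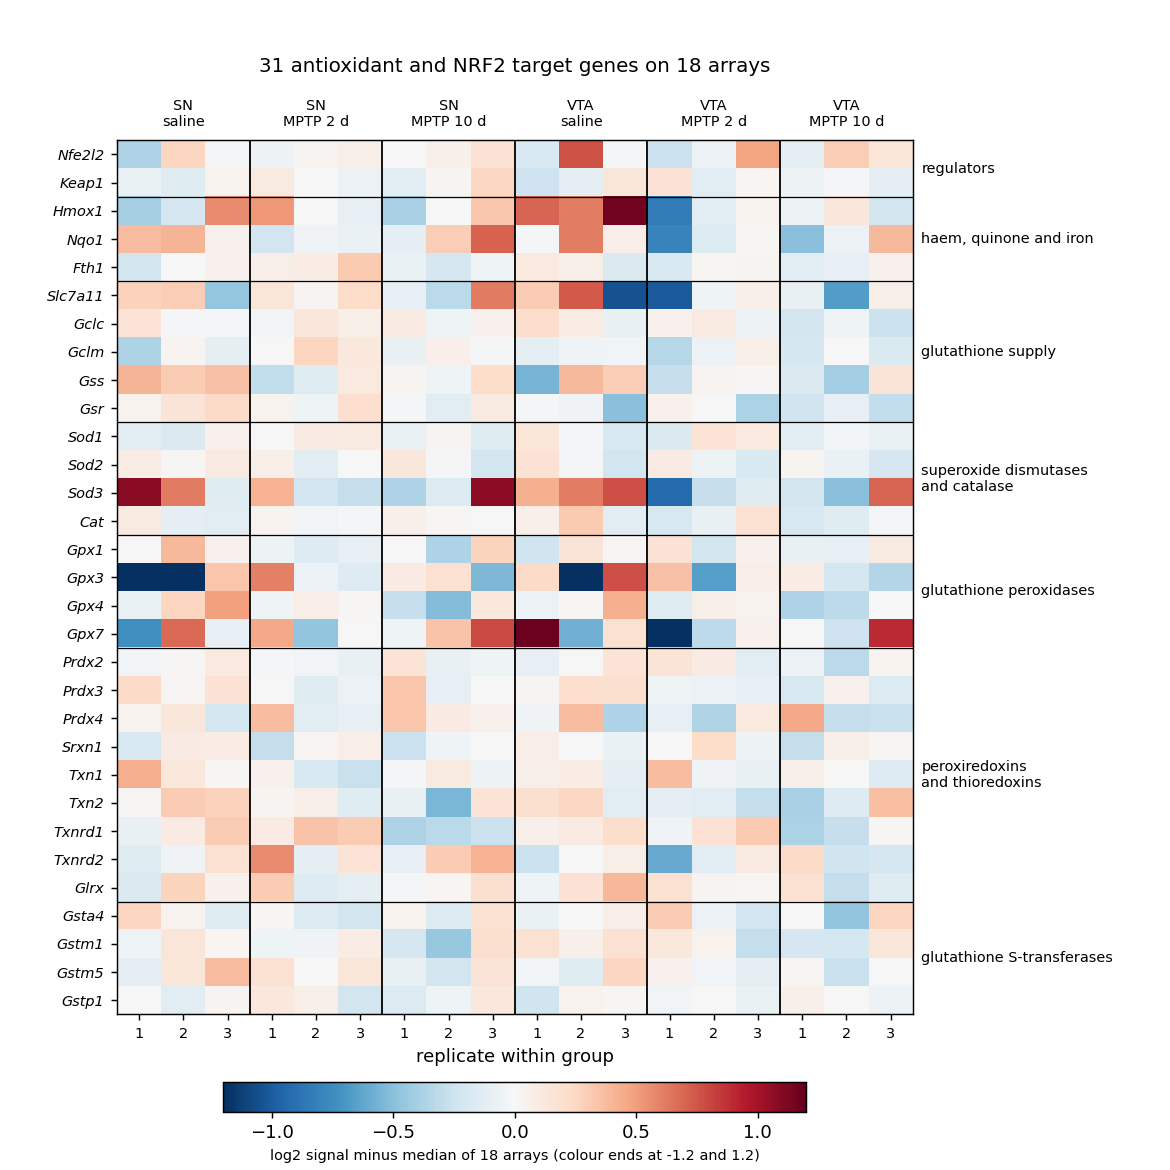
Centred log2 signal of the 31 measured members (rows, grouped by role) on the 18 arrays (columns, replicates 1 to 3 within each group), red above and blue below the gene's median over the arrays. Hmox1 is red on all 3 VTA saline arrays, while Gpx3, Gpx7, Sod3 and Slc7a11 vary between arrays of 1 group and Gclc, Sod1 and Gstp1 stay pale.

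The regulators themselves lay close to their controls. Nfe2l2, which encodes NRF2, was at -0.37, 0.26 and -0.019 on the SN saline arrays, at -0.061, 0.033 and 0.069 after 2 days and at -0.005, 0.058 and 0.18 after 10 days. VTA arrays gave -0.18, 0.76 and -0.015 with saline, -0.26, -0.075 and 0.47 after 2 days and -0.11, 0.29 and 0.14 after 10 days. The groups overlapped in both regions, with VTA saline array 2 the highest of all. The differences from saline were 0.058 ± 0.233 (SE, 3 arrays per group) and 0.12 ± 0.233 in SN and -0.14 ± 0.233 and -0.079 ± 0.233 in VTA at 2 and 10 days (adjusted p from 0.928 to 0.998). Leaving out 1 array could turn the sign. It became -0.105 and -0.042 in SN without SN saline array 1, and 0.144 and 0.209 in VTA without VTA saline array 2. In VTA it was also 0.009 at 2 days without 2 day array 1 and 0.03 at 10 days without 10 day array 1.

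Keap1, the adaptor that holds NRF2 back, was at -0.081, -0.14 and 0.042 in SN with saline, 0.11, 0.002 and -0.072 after 2 days and -0.12, 0.037 and 0.25 after 10 days. In VTA the values were -0.25, -0.11 and 0.15 with saline, 0.17, -0.12 and 0.024 after 2 days and -0.065, -0.017 and -0.105 after 10 days. Again no group stood apart, and the 4 differences from saline lay between 0.007 and 0.12, each with a standard error of 0.134. Their 95% intervals lay within -0.28 and 0.40.

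Hmox1 had the largest difference from saline of any member in the 4 comparisons of MPTP with saline, and it lay below its control, in VTA. It encodes haem oxygenase 1, the inducible enzyme that breaks haem down to biliverdin, iron and carbon monoxide. Its single probe set was at 0.70, 0.62 and 1.16 on the VTA saline arrays, at -0.84, -0.13 and 0.046 after 2 days of MPTP and at -0.060, 0.14 and -0.22 after 10 days. In SN it was at -0.40, -0.20 and 0.56 with saline, 0.52, 0.002 and -0.099 after 2 days and -0.39, -0.002 and 0.32 after 10 days. All 3 VTA saline arrays lay above the other 15, whose highest value was 0.56, on SN saline array 3.

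In VTA the difference of Hmox1 from saline was -1.13 ± 0.279 (SE) at 2 days (unadjusted p = 0.000888, adjusted p = 0.305) and -0.87 ± 0.279 at 10 days (unadjusted p = 0.00653, adjusted p = 0.695), with no overlap between arrays in either. The same saline arrays enter both differences. In SN it was 0.155 ± 0.279 and -0.011 ± 0.279, and the interval at 2 days ran from -0.44 to 0.75. The VTA response minus the SN response was -1.29 ± 0.394 at 2 days and -0.86 ± 0.394 at 10 days (adjusted p = 1 for each). Between the regions, the saline groups differed by 0.84 ± 0.279 (unadjusted p = 0.00825, adjusted p = 1), whereas after MPTP VTA minus SN was -0.45 ± 0.279 at 2 days and -0.020 ± 0.279 at 10 days. The 2 day value between regions was -0.183 without VTA 2 day array 1, the array of widest spread. Leaving out any 1 array kept the VTA differences between -1.31 and -0.87 at 2 days and between -0.975 and -0.705 at 10 days. Under every alternative the adjusted p at 2 days lay between 0.236 and 0.909.

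Microglia and macrophages are a known source of Hmox1, so their markers stand beside it. The mean of 14 such markers ran from 0.015 to 0.076 on the VTA saline arrays, from -0.42 to -0.035 after 2 days and from -0.235 to 0.32 after 10 days. In VTA, 11 of the 14 were lower at 2 days, with a median difference of -0.32, but 7 were lower and 7 higher at 10 days, with a median of -0.006. Between the saline groups 7 of 14 were higher in VTA, with a median of 0.017. Their part in the Hmox1 values was not tested. In laser-captured tissue, fewer cells of a type and less RNA per cell cannot be told apart.

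Nqo1 and Fth1 complete the group that handles quinones, haem and iron. Nqo1, a quinone reductase and the textbook NRF2 target, was at 0.37, 0.405 and 0.049 in SN with saline, -0.23, -0.039 and -0.078 after 2 days and -0.11, 0.29 and 0.71 after 10 days. The VTA values were -0.013, 0.62 and 0.078 with saline, -0.80, -0.16 and 0.013 after 2 days and -0.50, -0.073 and 0.39 after 10 days. All 3 SN arrays at 2 days lay below all 3 SN saline arrays, while in VTA the lowest saline array and the highest 2 day array crossed. The differences at 2 days were -0.39 ± 0.261 in SN and -0.55 ± 0.261 in VTA (adjusted p = 0.829 and adjusted p = 0.623), and the VTA one was -0.303 without VTA 2 day array 1. Averaged over both regions the 2 day difference was -0.47 ± 0.184 (unadjusted p = 0.0221, adjusted p = 0.349). If SN and VTA arrays share mice that p is too small, as is any other p for MPTP against saline averaged over both regions. At 10 days Nqo1 was at 0.023 ± 0.261 from saline in SN and -0.29 ± 0.261 in VTA, where it was -0.069 without VTA 10 day array 1.

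Fth1, the iron-storing ferritin heavy chain, was at -0.22, -0.004 and 0.055 with saline and 0.071, 0.085 and 0.32 after 2 days in SN. It was the only member higher on every 2 day SN array than on every saline one, a pattern shown by 5.96% of all genes, and the difference was 0.21 ± 0.128. After 2 days the VTA arrays, at -0.18, 0.028 and 0.037, lay below the SN arrays, with a difference of -0.20 ± 0.128 (adjusted p = 1) that was -0.116 without SN 2 day array 3. The VTA saline arrays of Fth1 were at 0.116, 0.066 and -0.171. After 10 days it was at -0.079, -0.204 and -0.052 in SN and -0.129, -0.102 and 0.052 in VTA, overlapping saline in both regions, with differences of -0.055 and -0.063.

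**Figure D2:**
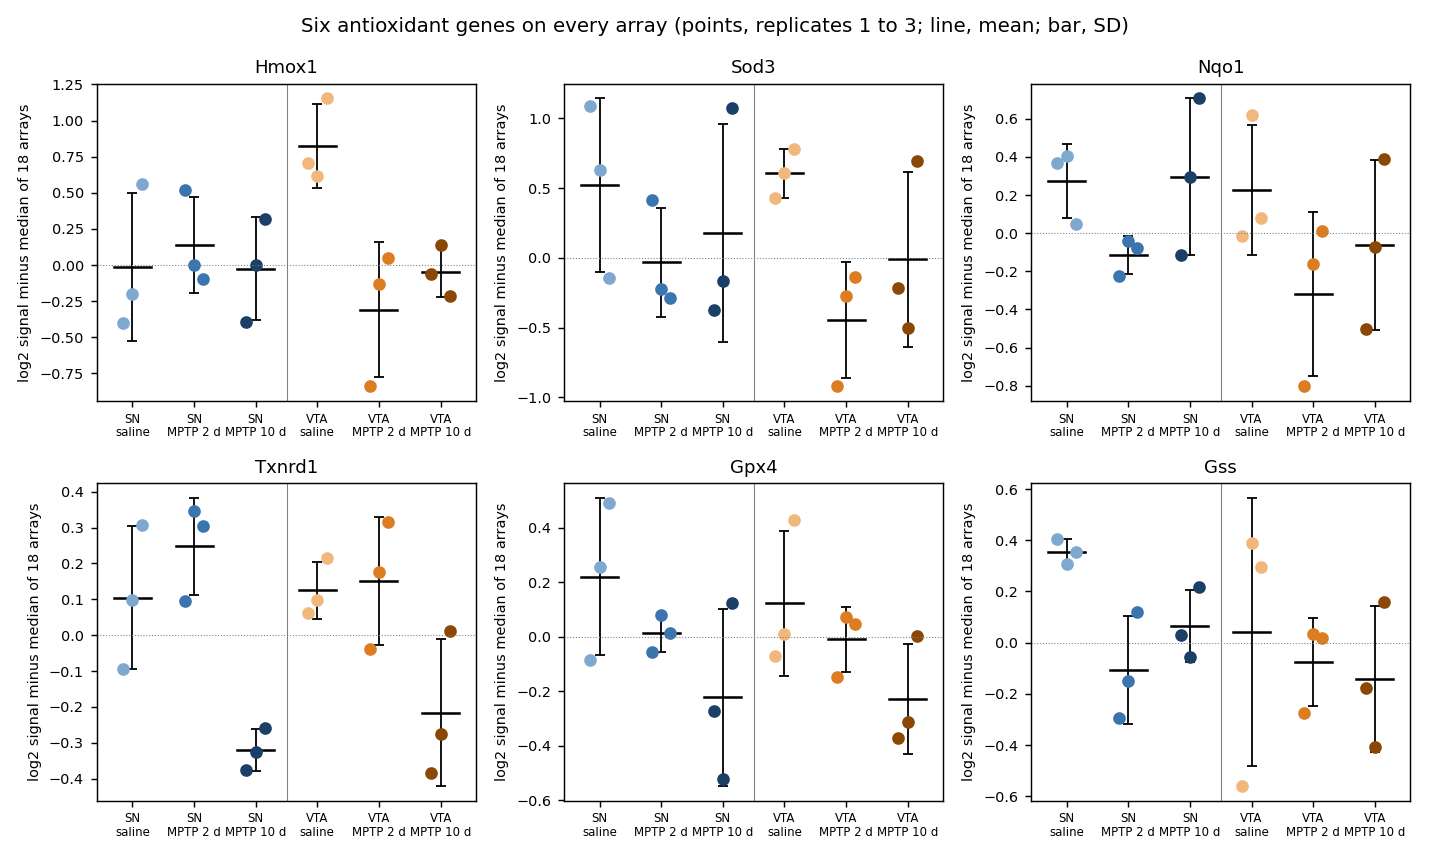
Centred log2 signal of 6 members on every array (points, replicates 1 to 3 from left to right), with the group mean (line) and SD (bar), SN in blue and VTA in orange. Hmox1 is highest on the 3 VTA saline arrays (0.62 to 1.16), the 5 lowest Txnrd1 values (-0.384 to -0.258) are 10 day arrays, and Gss is high and tight on the SN saline arrays (0.31 to 0.405).

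Glutathione supply showed no common direction in SN. All 5 of its genes lay below saline in VTA at 10 days, as did 29 of the 31 members and 50.9% of all genes. Gclc and Gclm encode the catalytic and modifier subunits of glutamate-cysteine ligase, the rate-limiting step. Gclc was at 0.17, -0.019 and -0.022 in SN with saline, -0.029, 0.13 and 0.074 after 2 days and 0.10, -0.052 and 0.048 after 10 days. On VTA arrays Gclc was at 0.21, 0.087 and -0.086 with saline, 0.052, 0.11 and -0.061 after 2 days and -0.22, -0.049 and -0.26 after 10 days. The VTA 10 day arrays held the 2 lowest values of the 18. That difference was -0.245 ± 0.118 (unadjusted p = 0.0543, adjusted p = 0.909), and both probe sets were lower, by -0.30 and -0.19. In SN the differences of Gclc were 0.017 ± 0.118 and -0.011 ± 0.118, and the intervals reached no higher than 0.27.

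Gclm was at -0.37, 0.030 and -0.11 in SN with saline, 0.002, 0.26 and 0.13 after 2 days and -0.092, 0.061 and -0.015 after 10 days. In VTA its values were -0.11, -0.039 and -0.035 with saline, -0.34, -0.073 and 0.067 after 2 days and -0.21, 0.004 and -0.18 after 10 days. The 2 day SN arrays sat above SN saline arrays 1 and 3 but overlapped array 2. The difference there was 0.28 ± 0.136 (unadjusted p = 0.055, adjusted p = 0.753), with both probe sets higher, and it was 0.17 without SN saline array 1. In VTA the differences were -0.053 ± 0.136 and -0.066 ± 0.136, with the 2 probe sets of opposite sign at both times, and the VTA minus SN response at 2 days was -0.33 ± 0.192 (adjusted p = 1), or -0.222 without VTA 2 day array 1.

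Gss, glutathione synthetase, was at 0.405, 0.31 and 0.36 in SN with saline, -0.29, -0.15 and 0.12 after 2 days and 0.030, -0.055 and 0.22 after 10 days. The SN saline arrays lay above both MPTP groups without overlap. The difference was -0.46 ± 0.214 at 2 days (unadjusted p = 0.0459, adjusted p = 0.739) and -0.29 ± 0.214 at 10 days, with both probe sets lower each time. In VTA, saline array 1 was at -0.56 and the other saline arrays at 0.39 and 0.295. The VTA arrays were at -0.275, 0.032 and 0.017 after 2 days and -0.176, -0.409 and 0.159 after 10 days, within the saline range, and the differences were -0.12 and -0.18. Gsr, glutathione reductase, was at 0.040, 0.16 and 0.23 in SN and at -0.027, -0.043 and -0.505 in VTA with saline, a difference of -0.335 ± 0.152 without overlap (unadjusted p = 0.0429, adjusted p = 1). VTA array 3 carries much of it, since it was -0.18 without that array. After 2 days Gsr was at 0.042, -0.051 and 0.197 in SN and 0.051, -0.008 and -0.378 in VTA, and after 10 days at -0.019, -0.13 and 0.11 in SN and -0.24, -0.098 and -0.293 in VTA, so the regions overlapped at 2 days and at 10 days. Averaged over the 3 treatments Gsr was at -0.24 ± 0.088 in VTA against SN (unadjusted p = 0.0164, adjusted p = 0.972), the smallest p of any member in that comparison, and its 2 probe sets were at -0.386 and -0.085. Slc7a11, the cystine importer, ranged from -1.04 to 0.73 among the VTA saline arrays alone, and its differences from saline, between -0.33 and 0.097, were smaller than that range.

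Among the enzymes that remove superoxide and peroxide directly, Sod3 stood out from Sod1, Sod2 and Cat. Sod3, the secreted superoxide dismutase, was at 0.43, 0.61 and 0.78 in VTA with saline, -0.92, -0.275 and -0.14 after 2 days and -0.22, -0.505 and 0.695 after 10 days. The 2 day VTA arrays all lay below the saline arrays, and 10 day array 3 overlapped them. In SN the values were 1.09, 0.63 and -0.15 with saline, 0.42, -0.23 and -0.29 after 2 days and -0.37, -0.16 and 1.075 after 10 days, so the SN groups overlapped. The difference in VTA was -1.05 ± 0.392 at 2 days (unadjusted p = 0.0162, adjusted p = 0.531) and -0.62 ± 0.392 at 10 days. In SN it was -0.55 ± 0.392 and -0.34 ± 0.392. Averaged over the regions the 2 day difference was -0.80 ± 0.277 (unadjusted p = 0.0104, adjusted p = 0.273). The 2 probe sets of Sod3 differed in size, at -1.875 and -0.23 in VTA at 2 days.

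Markers of several other cell types also lay lower in VTA at 2 days, where Sod3 and Hmox1 did, though not all did and not only there. In VTA at 2 days, 11 of 11 oligodendrocyte markers were lower than in saline (median -0.39), as were 12 of 15 astrocyte markers (-0.155) and 11 of 14 endothelial and pericyte markers (-0.18). The oligodendrocyte mean ran from -0.023 to 0.48 on the VTA saline arrays and from -0.33 to -0.036 on the 2 day arrays. For astrocyte markers the ranges were 0.009 to 0.13 and -0.26 to -0.010, and for endothelial and pericyte markers -0.11 to 0.15 and -0.45 to -0.040. In the same comparison 9 of 10 choroid plexus and ependymal markers and 4 of 7 GABA neuron genes were higher. Oligodendrocyte markers were lower in SN too, 9 of 11 at 2 days and 10 of 11 at 10 days. In VTA at 10 days 10 of 11 of them and 11 of 15 astrocyte markers were lower, but 8 of 14 endothelial and pericyte markers were higher. Dopamine neuron genes were lower in VTA at 2 days too, 19 of 20, with a median of -0.63, but the arrays overlapped. Their mean was at -0.64, 0.73 and 0.64 on the VTA saline arrays and at -0.86, 0.13 and -0.345 on the 2 day arrays. The part of any of these in the antioxidant values was not tested.

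Sod1, the cytosolic enzyme, differed from saline by between -0.061 and 0.154, Sod2, the mitochondrial one, by between -0.101 and -0.027, and catalase (Cat) by between -0.20 and 0.078 over the 4 MPTP comparisons. Their standard errors, 0.126 to 0.135, compare with 0.392 for Sod3. The 5 probe sets of Sod1 did not agree, with differences between -0.101 and 0.827 in SN at 2 days. Cat was at 0.107, -0.119 and -0.14 in SN and 0.06, 0.317 and -0.133 in VTA with saline, and at 0.044, -0.037 and -0.026 in SN and -0.188, -0.086 and 0.187 in VTA after 2 days. After 10 days it was at 0.059, 0.016 and 0.007 in SN and -0.191, -0.147 and -0.027 in VTA. The VTA arrays at 10 days lay below the SN arrays, by -0.149 ± 0.135, and its 2 probe sets stood at -0.314 and 0.017.

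The glutathione peroxidases gave differences of both signs. Gpx4, which reduces lipid hydroperoxides and guards against ferroptosis, was at -0.084, 0.255 and 0.49 in SN with saline, -0.056, 0.081 and 0.015 after 2 days and -0.27, -0.52 and 0.12 after 10 days. VTA gave -0.071, 0.011 and 0.43 with saline, -0.15, 0.072 and 0.045 after 2 days and -0.37, -0.31 and 0.003 after 10 days. In each region 2 of the 3 arrays at 10 days lay below every saline array, and array 3 did not. The 10 day difference was -0.44 ± 0.187 in SN (unadjusted p = 0.0306, adjusted p = 0.888) and -0.35 ± 0.187 in VTA, and both probe sets were lower in each. Averaged over regions it was -0.40 ± 0.132 (unadjusted p = 0.00848, adjusted p = 0.412), with adjusted p from 0.196 to 0.796 under the alternatives.

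Gpx3, the secreted peroxidase, had the largest positive difference of any member, 1.02 ± 0.498 in SN at 2 days, but it rests on low saline arrays. SN saline arrays 1 and 2 were at -1.315 and -1.70 and array 3 at 0.34, and the 2 day arrays at 0.60, -0.075 and -0.16. VTA saline array 2 was also low, at -1.215, beside 0.23 and 0.77. The SN difference at 2 days ran from 0.61, without SN saline array 2, to 1.63, without SN saline array 3 (adjusted p = 0.754 with all). At 10 days the SN arrays were at 0.096, 0.18 and -0.54, a difference of 0.81 ± 0.498 that ran from 0.401 to 1.421 without the same arrays. In VTA Gpx3 was at 0.353, -0.665 and 0.075 after 2 days and 0.087, -0.209 and -0.355 after 10 days, inside the saline range, and the differences were -0.008 and -0.087. Gpx7, a peroxidase of the endoplasmic reticulum, was at 1.17, -0.58 and 0.19 in VTA with saline and -1.41, -0.32 and 0.054 after 2 days, and the difference of -0.82 ± 0.475 became -0.36 without VTA saline array 1. Those groups had SDs of 0.878 and 0.761, and the other 4 groups of Gpx7 had SDs from 0.422 to 0.708. In SN it was at -0.734, 0.681 and -0.095 with saline, 0.458, -0.478 and 0 after 2 days and -0.051, 0.338 and 0.792 after 10 days, and on the VTA 10 day arrays at 0, -0.247 and 0.899, so all these groups overlapped. Gpx1, the abundant cytosolic peroxidase, was at -0.002, 0.39 and 0.049 in SN with saline and -0.065, -0.15 and -0.098 after 2 days, without overlap, at -0.25 ± 0.169.

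Of the thioredoxin system, Txnrd1 was low at 10 days in both regions. It encodes the cytosolic thioredoxin reductase, a selenoenzyme and NRF2 target, and its promoter stretch with the element core is printed above. In SN it was at -0.093, 0.099 and 0.31 with saline, 0.094, 0.345 and 0.305 after 2 days and -0.375, -0.325 and -0.26 after 10 days. In VTA it was at 0.061, 0.099 and 0.21 with saline, -0.039, 0.18 and 0.32 after 2 days and -0.38, -0.28 and 0.013 after 10 days. The 10 day arrays lay below the saline arrays without overlap in each region, and the 2 day arrays did not. The 10 day difference was -0.42 ± 0.142 in SN (unadjusted p = 0.00884, adjusted p = 0.833) and -0.34 ± 0.142 in VTA (unadjusted p = 0.0294, adjusted p = 0.848), with all 3 probe sets lower each time, from -0.497 to -0.325 and from -0.41 to -0.30. At 2 days it was 0.14 and 0.027.

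Averaged over both regions Txnrd1 was at -0.38 ± 0.101 at 10 days, 110th of 18193 genes by p (unadjusted p = 0.00157, adjusted p = 0.257), and with the replicate number as a block the adjusted p was 0.0979. Its adjusted p under the alternatives ran from there to 0.651. Leaving out 1 array kept the averaged difference between -0.44 and -0.33. The SN and VTA values of Txnrd1 are not independent support for each other if they come from the same mice.

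The other members of the system differed less. Prdx3, the mitochondrial peroxiredoxin, was at 0.23, 0.011 and 0.175 in SN and 0.033, 0.20 and 0.19 in VTA with saline, and at -0.004, -0.15 and -0.075 in SN and -0.055, -0.075 and -0.094 in VTA after 2 days. All 6 arrays at 2 days lay below all 6 saline arrays, by a small amount, -0.22 ± 0.091 (unadjusted p = 0.03, adjusted p = 0.393). Among all genes, 0.429% showed such a gap in that direction. The 6 arrays on each side are not independent if SN and VTA arrays share mice. After 10 days Prdx3 was at 0.335, -0.1 and 0.004 in SN and -0.196, 0.053 and -0.164 in VTA, overlapping saline in both, and the mean difference of both regions was -0.15. VTA alone was at -0.244 ± 0.129 from saline (unadjusted p = 0.0758, adjusted p = 0.912). VTA minus SN was -0.182 ± 0.129 at 10 days, and -0.054 without SN 10 day array 1. Txn1, cytosolic thioredoxin, was at 0.44, 0.13 and 0.017 in SN with saline and 0.055, -0.18 and -0.265 after 2 days, a difference of -0.325 ± 0.151 (unadjusted p = 0.0469, adjusted p = 0.742) that was -0.20 without SN saline array 1. After 10 days the SN arrays were at -0.014, 0.109 and -0.059. VTA arrays of Txn1 were at 0.071, 0.09 and -0.117 with saline, 0.373, -0.038 and -0.09 after 2 days and 0.074, 0.003 and -0.157 after 10 days, with overlap throughout. The VTA difference at 2 days was 0.067, and the difference of the responses was 0.39 ± 0.214 (adjusted p = 1), or 0.247 without VTA 2 day array 1. Txn2, mitochondrial thioredoxin, was at 0.018, 0.30 and 0.28 in SN with saline, 0.029, 0.07 and -0.144 after 2 days and -0.085, -0.54 and 0.165 after 10 days. The 10 day difference was -0.35 ± 0.197, and -0.16 without SN 10 day array 2. In VTA Txn2 was at 0.194, 0.246 and -0.137 with saline, -0.114, -0.122 and -0.282 after 2 days and -0.387, -0.155 and 0.357 after 10 days, and each MPTP group overlapped saline. All 3 of its probe sets were lower than saline in each of the 4 MPTP comparisons.

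Txnrd2, the mitochondrial reductase, was at -0.149, -0.044 and 0.179 in SN and -0.26, 0.007 and 0.074 in VTA with saline. It was at 0.57, -0.11 and 0.16 in SN and -0.61, -0.14 and 0.11 in VTA after 2 days, and at -0.094, 0.31 and 0.42 and 0.23, -0.24 and -0.20 after 10 days. The regions overlapped in every treatment. VTA minus SN averaged over treatments was -0.25 ± 0.123 (unadjusted p = 0.0583, adjusted p = 0.972). Prdx2, Prdx4, the repair enzyme Srxn1 and the glutaredoxin Glrx had differences from saline between -0.26, for Glrx in VTA at 10 days, and 0.17, for Prdx4 in SN at 10 days. The glutathione S-transferases Gsta4, Gstm1, Gstm5 and Gstp1, which conjugate glutathione to reactive lipids and other electrophiles, lay between -0.234 and 0.062. Among them Gstm1 was lower in all 4 MPTP comparisons, with -0.21 at 10 days averaged over the regions (unadjusted p = 0.0816, adjusted p = 0.689), and Gstp1 stayed between 0.004 and 0.062.

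**Figure D3:**
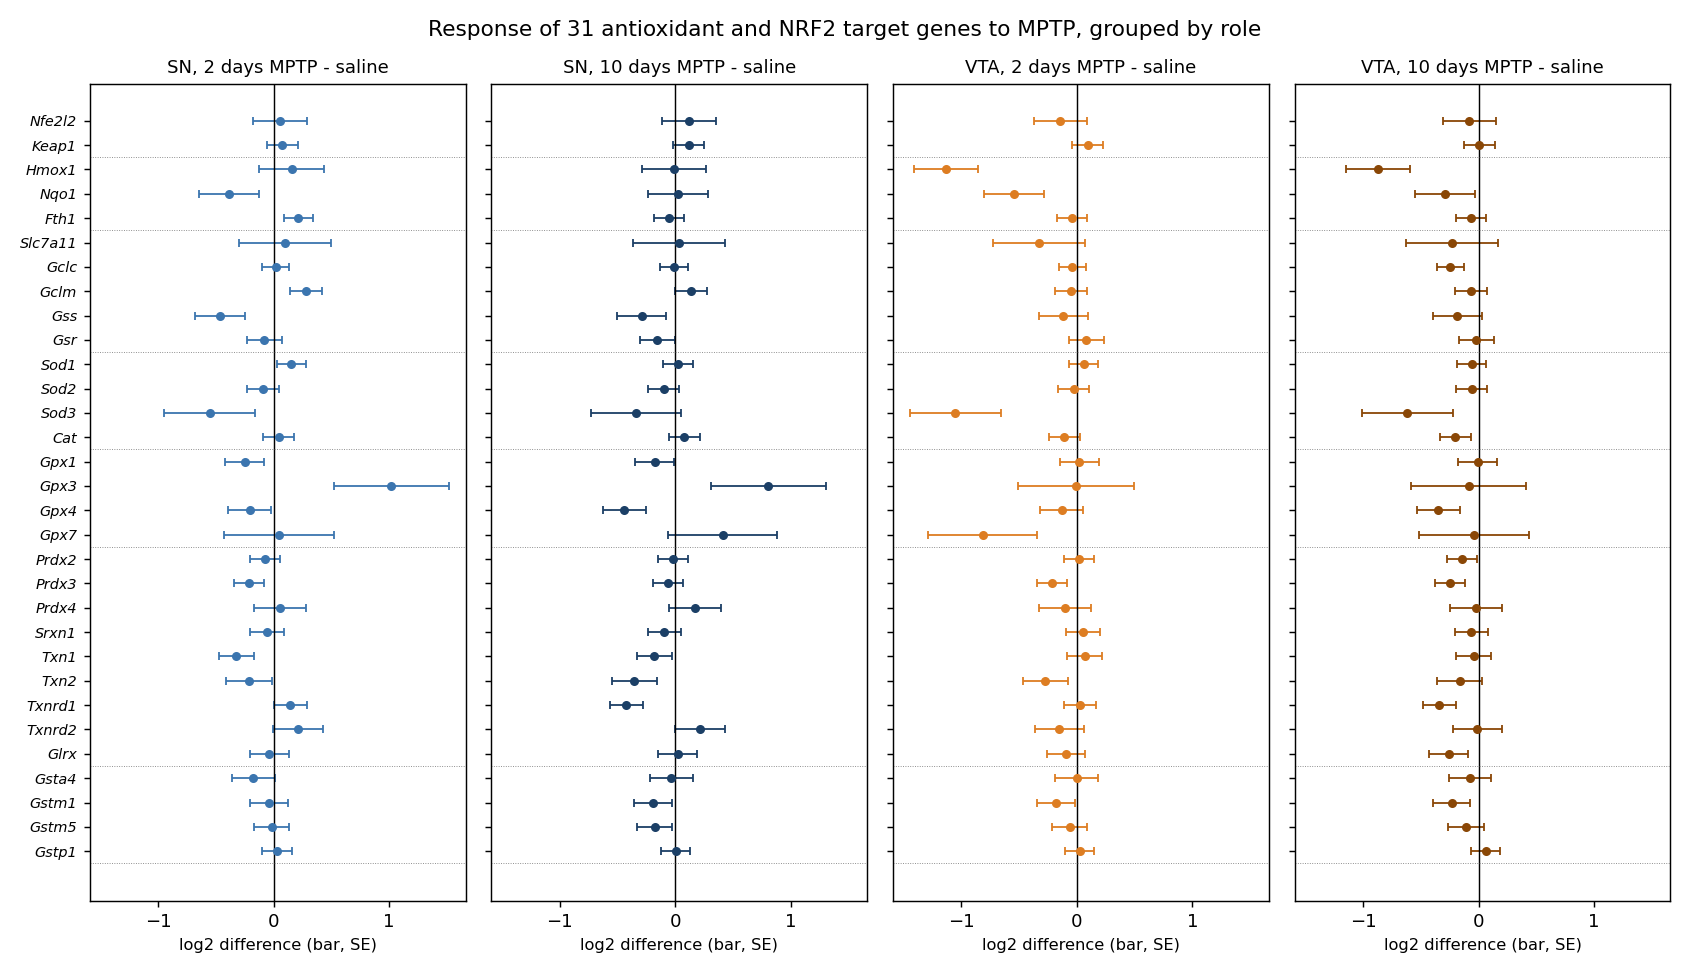
Log2 difference from saline of each of the 31 members (rows, dotted lines between roles) with its SE (bar) for 2 and 10 days of MPTP in SN (blue) and VTA (orange). Points scatter on both sides of 0 in SN, and in VTA at 10 days 29 of 31 lie to the left, down to -0.87 for Hmox1.

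Set side by side, the 4 comparisons with saline gave no induction of the NRF2 programme that passed the test. In SN at 2 days 15 members were higher and 16 lower, with a median of -0.018 against -0.027 for all genes, and at 10 days 13 were higher and 18 lower, with -0.021 against -0.017. In VTA at 2 days 9 were higher and 22 lower, with -0.062 against -0.008, and at 10 days 2 were higher and 29 lower, with -0.087 against -0.005. The 2 higher ones were Keap1 (0.007) and Gstp1 (0.062). Of all genes 44.7% and 46.6% were higher in SN at 2 and 10 days, and 48.4% and 49.1% in VTA. When 1 array was left out, 17 to 22 members were lower in VTA at 2 days, with 17 without VTA saline array 2, and 24 to 26 at 10 days, with 24 without that array or VTA 10 day array 3, and the 10 day median ran from -0.204, without VTA 10 day array 3, to -0.075. The members were read on the same arrays, so their shared direction is a description and has no test.

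Counts of members at an unadjusted p under 0.05 are out of 31 and were not themselves tested. They are small, and the 2 and 10 day comparisons of a region share their saline arrays. In SN 2 members lay lower at 2 days, where 3.8% of all genes did, and 2 at 10 days, where 3.14% did. In VTA there were 2 at 2 days, against 3.92%, and 2 at 10 days, against 2.53%. Averaged over both regions, 4 lay lower at 2 days (Sod3, Nqo1, Hmox1 and Prdx3), against 5.79% of all genes, and 3 at 10 days (Txnrd1, Gpx4 and Hmox1), against 3.86%, and 0 higher, against 5.34% and 3.88%. In the single regions no member was higher at that p, against 2.85% and 2.43% of all genes in SN and 4.14% and 2.89% in VTA. Lower arrays without overlap were seen in 4 members in SN at 2 days (Nqo1, Gss, Gpx1 and Prdx3), against 8.56% of all genes, and in 2 at 10 days (Gss and Txnrd1), against 6.27%. In VTA 3 members at 2 days (Hmox1, Sod3 and Prdx3) compare with 4.92%, and 2 at 10 days (Hmox1 and Txnrd1) with 4.53%. Higher arrays without overlap were seen in 1 member in SN at 2 days, Fth1, and in 0 in the other 3, where 5%, 5.1% and 4.77% of all genes had them. The 6 measured members with the element core in their window had medians of 0.101 and -0.037 in SN at 2 and 10 days, with 4 and 3 higher, against -0.039 and -0.008 for the 20 with a window and no match, of which 9 and 10 were higher. In VTA the medians were -0.013 and -0.073, with 3 and 6 of the 6 lower, against -0.106 and -0.114, with 15 and 18 of the 20 lower. Hmox1, Gclc, Gsr, Sod3 and Gsta4 had no window and are in neither set. Nqo1 is among the 20, so the split does not part NRF2 targets from other genes.

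Between the regions no member was called, and after MPTP more members were lower in VTA than higher. With saline 14 were higher in VTA and 17 lower, with a median of -0.004 against 0 for all genes. After 2 days 10 were higher and 21 lower, where 53.7% of all genes were higher, with a median of -0.029 against 0.016. After 10 days 8 were higher and 23 lower, where 51.1% were higher, with a median of -0.09 against 0.005. Averaged over treatments 8 were higher, where 52.6% were, with a median of -0.039 against 0.008. Members at an unadjusted p under 0.05 were Hmox1 (higher in VTA) and Gsr (lower) with saline, where 1.85% and 2.51% of all genes lay on those sides, and Gsr when averaged, where 1.93% lay lower and 2.27% higher. After MPTP there were 0, against 1.73% higher and 1.06% lower at 2 days and 1.89% and 1.1% at 10 days. Arrays without overlap were seen in Hmox1, higher in VTA, and Gsr, lower, with saline (3.46% and 3.84% of all genes). They were seen in Fth1, lower, at 2 days (3.55%, and 4.99% higher) and Cat, lower, at 10 days (4.12%, and 4.88% higher). The difference between the VTA and SN responses had a median of -0.059 over the members at 2 days and -0.109 at 10 days, against 0.016 and 0.011 for all genes, and only Hmox1 lay lower at an unadjusted p under 0.05 in them, where 1.33% and 1.34% of all genes did.

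Other genes of the pathway, 79 measured of a further list of transferases, pentose phosphate enzymes, MAF partners and redox repair enzymes, also had 0 called members in each comparison with saline. In SN 60 of the 79 were lower at 2 days, with a median of -0.13, and 54 at 10 days, with -0.097, while in VTA 44 and 40 were lower. Ccs, the chaperone that loads copper into SOD1, had the smallest p of the list in 2 of these. It was at 0.41, 0.53 and 0.31 in SN with saline, 0.17, -0.25 and -0.19 after 2 days and -0.47, -0.84 and -0.079 after 10 days. The VTA arrays were at 0.695, 0.050 and 0.74 with saline, -0.76, -0.050 and -0.10 after 2 days and -0.35, 0.15 and 0.16 after 10 days. The SN saline arrays lay above both MPTP groups, and the differences were -0.51 ± 0.241 and -0.88 ± 0.241 in SN and -0.80 ± 0.241 and -0.51 ± 0.241 in VTA (adjusted p from 0.406 to 0.909).

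Abcc4, an efflux transporter, was at 0.29, 0.28 and 0.98 in VTA with saline and -1.21, -1.06 and -0.41 after 10 days, a difference of -1.41 ± 0.374 without overlap (unadjusted p = 0.00168, adjusted p = 0.441). Nfe2, a relative of NRF2 best known in blood cells, was at -0.52 ± 0.158 in SN at 2 days (unadjusted p = 0.00467, adjusted p = 0.633). All 4 measured erythrocyte genes were lower there too, with a median of -0.69, and a link between them and Nfe2 was not tested. Akr1b8, an aldo-keto reductase, was at -0.58 ± 0.187 in VTA at 10 days (adjusted p = 0.706).

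Genes that handle MPTP itself were read on the same arrays, 7 days after dosing ended, so their values follow the exposure. Their relation to the amount of toxin the neurons met was not tested. Maob, which activates MPTP, was at 0.53 ± 0.361 and 0.57 ± 0.361 from saline in SN and at -0.66 ± 0.361 and -0.325 ± 0.361 in VTA, and its VTA minus SN response at 2 days was -1.19 ± 0.51 (unadjusted p = 0.0333, adjusted p = 1). Slc6a3, the dopamine transporter that imports the toxin, was at -0.96 ± 0.368 and -0.42 ± 0.368 in SN and -0.46 ± 0.368 and -0.079 ± 0.368 in VTA at 2 and 10 days. The vesicular transporter gene Slc18a2 was at -0.995 ± 0.431 and -0.41 ± 0.431 in SN and -0.73 ± 0.431 and -0.32 ± 0.431 in VTA. Both Slc6a3 and Slc18a2 are also counted among the 20 dopamine neuron genes. Maoa and Slc6a4, measured beside them, lay between -0.49 and 0.056.

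**Figure D4:**
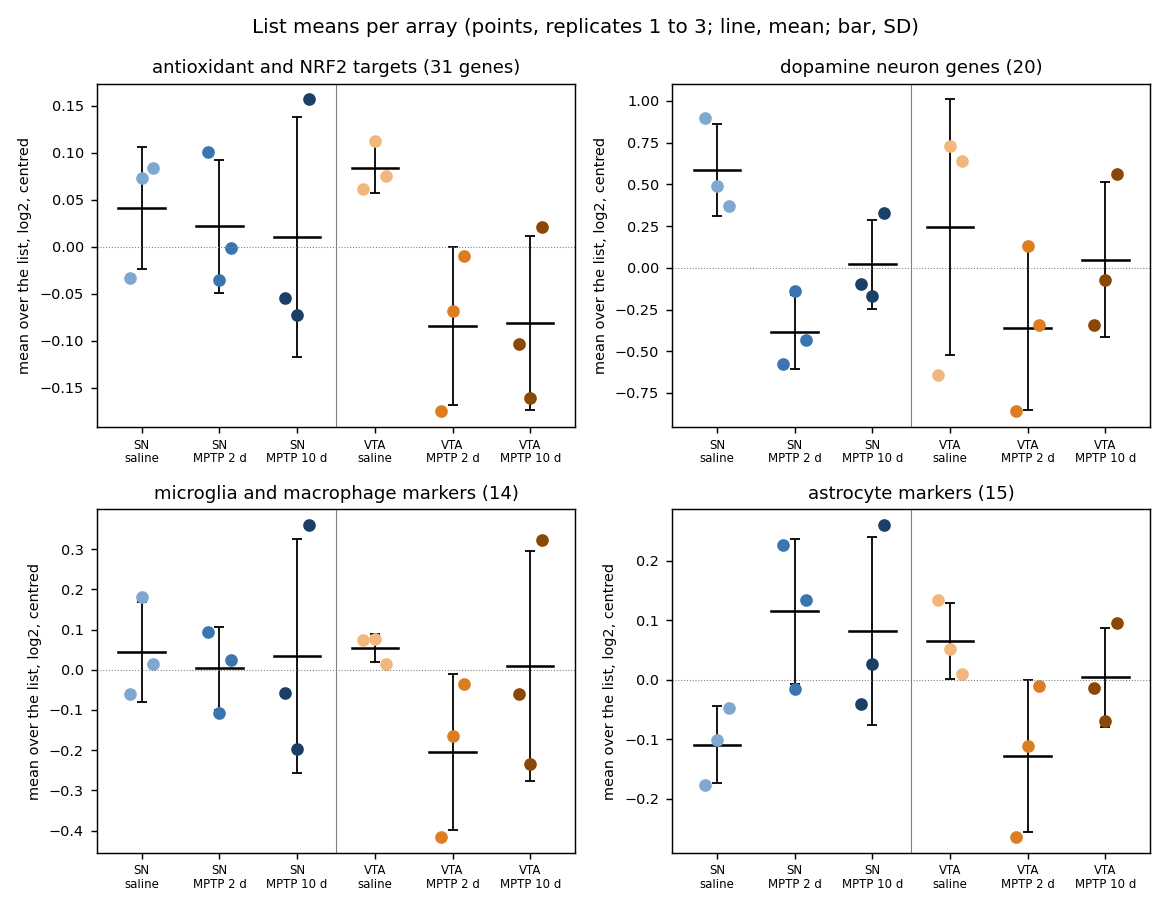
Mean of each list per array (points, replicates 1 to 3 from left to right), with the group mean (line) and SD (bar), for the 31 members, 20 dopamine neuron genes, 14 microglia and macrophage markers and 15 astrocyte markers; the vertical scales differ. The member mean lies between 0.062 and 0.11 on the VTA saline arrays and between -0.175 and 0.021 on the VTA arrays after MPTP.

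As an average over the 31 members, the arrays differed little. The mean was at -0.033, 0.073 and 0.084 in SN with saline, 0.101, -0.035 and -0.001 after 2 days and -0.054, -0.073 and 0.157 after 10 days. In VTA it was at 0.062, 0.113 and 0.075 with saline, -0.175, -0.068 and -0.010 after 2 days and -0.103, -0.161 and 0.021 after 10 days. The SN groups overlapped, and the VTA saline arrays lay above the 6 VTA arrays given MPTP. Dopamine neuron genes, in the same comparisons, had medians of -0.99 and -0.59 in SN and -0.63 and -0.19 in VTA. In SN their mean ran from 0.37 to 0.897 with saline, above both MPTP groups. It ran from -0.579 to -0.142 after 2 days and from -0.169 to 0.327 after 10 days. In VTA both MPTP groups of this list overlapped saline, where array 1 was at -0.64 beside 0.73 and 0.64. Astrocyte markers ran the other way in SN, with 13 of 15 higher at 2 and at 10 days (medians 0.25 and 0.17), their mean lying between -0.18 and -0.048 on the SN saline arrays and between -0.040 and 0.26 on the MPTP arrays. Choroid plexus and ependymal markers were higher in 8 of 10 in SN at 10 days and 9 of 10 in VTA at 2 days (medians 0.76 and 0.55). Of 7 GABA neuron genes, 7 were lower in SN at 10 days (median -0.25), and of 7 oligodendrocyte precursor genes 5 were lower in VTA at 2 days (-0.43). The part of these lists in the values of the members was not tested.

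Of the members without a probe set of their own, Prdx1 is read by 5 probe sets that also carry the symbol Gm21399, and Ftl1 by 3 that also carry further symbols. In the comparisons with saline the Prdx1 probe sets lay between -0.222 and 0.095 and the Ftl1 probe sets between -0.349 and 0.035. The smallest adjusted p over all probe sets was 0.796, and which gene these signals come from cannot be told apart.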

How the data were processed

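The authors deposited a log2 value for each of 45101 probe sets on 18 arrays. The design text names Agilent GeneSpring GX 10.0 for the log2 step, and RMA is named there and in the submitters' processing notes. Each probe set was found to have a median over the arrays within 5e-07 of 0, a centring not given in the sources used here, so no filter on low signal was possible. Of the probe sets, 34945 had 1 symbol and 932 several, in an annotation that can be old, and 64 control probe sets were left out. Genes are means of probe sets. Differences, their standard errors and 95% intervals come from limma 3.58.1, run in R 4.3.3 with 6 group means and moderated variances (12 residual and 4.06 prior degrees of freedom), adjusted over 18193 genes, two-sided, at 0.05, and the script was tested on simulated data. The members, lists and comparisons were chosen with earlier results of these data known. Values on every array are given for the 4 members of smallest p per comparison and for Hmox1, Nqo1, Gclc, Gclm, Nfe2l2 and Keap1; members outside this rule are given in ranges, or by name after their values were seen. Of the other pathway genes, the 2 of smallest p per comparison could be named. Titles number the replicates, but no source ties the numbers to mice, so they were not taken as pairs. Of 9 same-numbered SN and VTA pairs, 7 had deviations correlated above 0.1 (0.05 to 0.399). Plots used matplotlib 3.10.9 (Python 3.11.15).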

Additional observations from a re-analysis of the deposited data

How the results depend on the processing

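The count of called members stayed at 0 in all 12 comparisons under every alternative run: single probe sets, the probe set of largest SD, only the groups compared, arrays centred on their median, a repeated quantile normalisation, array weights, omission of the 2 arrays of widest spread, the replicate block, and omission of any 1 array. A filter on low values was not run, since the values are centred for each probe set. With the replicate number as a block the smallest adjusted p of a named member was 0.0979 (limma; Txnrd1, 10 days, both regions), and the block changed no call. Blocks of SN and VTA arrays of the same treatment and number, added after seeing the data, changed none either. By correlation 17 of 18 arrays were closest to their own number among the 3 arrays of the same treatment in the other region. This is a hint from the data and not the design.

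The members' median moved to -0.103 for VTA against SN at 2 days when each gene was read by its most variable probe set, and to -0.084 for SN at 2 days without the 2 widest arrays. With 1 array left out it ran from -0.084 to 0.01 in SN at 2 days, from -0.085 to 0.016 in SN at 10 days, from -0.092 to -0.01 in VTA at 2 days, from -0.204 to -0.075 in VTA at 10 days, from -0.153 to -0.02 for VTA against SN at 10 days and, for the difference of responses, from -0.122 to 0 at 2 days and from -0.164 to -0.011 at 10 days. The causes were not tested.

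Some signs reversed. With the probe set of largest SD, Nfe2l2 was at -0.08 (SN, 2 days), Gclc at 0.17 (SN, 10 days) and Cat at 0.131 (difference of responses, 10 days, -0.281 ± 0.191 as the mean of its probe sets). With arrays centred, Hmox1 was at 0 and Gclc at 0.001 (SN, 10 days), and after quantile normalisation Gclc was at 0.013 and Keap1 at -0.007 (VTA, 10 days). With array weights, Hmox1 was at -0.028 and Nfe2l2 at -0.022 (SN, 2 days), Nqo1 at -0.016 and Gclc at 0.018 (SN, 10 days) and Gclm at 0.037 (VTA, 2 days). Without the 2 widest arrays, Hmox1 was at -0.04 and Nfe2l2 at -0.105 (SN, 2 days), Gclc at 0.052 and Nfe2l2 at -0.042 (SN, 10 days), and Gclm at 0.059 and Nfe2l2 at 0.009 (VTA, 2 days).

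Leaving out 1 array gave signs on both sides in SN at 2 days for Hmox1 (-0.04 to 0.443), Gclc (-0.02 to 0.08) and Nfe2l2 (-0.105 to 0.208). In SN at 10 days it did so for Hmox1 (-0.206 to 0.278), Nqo1 (-0.184 to 0.227), Gclc (-0.045 to 0.052) and Nfe2l2 (-0.042 to 0.271). In VTA it did so at 2 days for Gclc (-0.118 to 0.032), Gclm (-0.144 to 0.059) and Nfe2l2 (-0.356 to 0.144), and at 10 days for Nfe2l2 (-0.265 to 0.209) and Keap1 (-0.083 to 0.116). The number of arrays limits the precision.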
